A study of Homo sapiens with 9 samples.

Results

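The levels of 33 genes of cholesterol and fatty acid synthesis were followed, out of 19984 protein-coding genes in a table of normalized counts from LNCaP cells, an androgen-responsive human prostate cancer cell line from a lymph node metastasis. The genes were chosen by symbol, and their Ensembl identifiers were matched to symbols without the version number. All 33 were found, and all 33 passed the filter on low values (a mean normalized count of 1 or more in the 6 libraries compared). They fall into 4 regulators (*SREBF1*, *SREBF2*, *SCAP* and *INSIG1*), 18 enzymes of the sterol branch, 1 sterol carrier (*STARD4*) and 10 enzymes of the fatty acid branch. Of the sterol enzymes, 7 act from acetyl-CoA to farnesyl diphosphate (*ACAT2*, *HMGCS1*, *MVK*, *PMVK*, *MVD*, *IDI1* and *FDPS*) and 11 act from there to cholesterol (*FDFT1*, *SQLE*, *LSS*, *CYP51A1*, *TM7SF2*, *MSMO1*, *NSDHL*, *HSD17B7*, *EBP*, *SC5D* and *DHCR7*). The fatty acid enzymes are *ACLY*, *ACACA*, *FASN*, *SCD*, *ELOVL5*, *ELOVL6*, *FADS1*, *FADS2*, *ACSS2* and *ME1*.

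RNA-seq was performed on polyA RNA of *EPCART*-del and WT clones made with CRISPR-Cas9, to see what the loss of the long non-coding RNA *EPCART* does to gene expression. The clones del-4 and del-56 lack the promoter and the first exons of *EPCART*, and the WT clone does not carry the deletion. All were grown without any added agent for 48 h in RPMI 1640 medium with 10% serum, and 3 libraries were made from 3 cultures of each clone, which gives 9 libraries. Each group is therefore 1 clone, so that the deletion and any other difference between clones cannot be told apart, and p-values measure the spread between cultures of a clone. *EPCART* itself was not measured here, since the table holds protein-coding genes, and its loss was not checked. The libraries held 91074556 to 118877134 reads on genes. All 10 markers of LNCaP cells were at 5012 or more normalized counts in every library. The sum of 21 markers of other cell types was 2256 to 2566 in del-4, 2909 to 3408 in del-56 and 2547 to 2606 in WT. Of these, CD3E, CDH5 and LEP were at 0 in all libraries. Others were present in all, with COL1A1 at 937 to 1359, CD68 at 485 to 565 and VWF at 288 to 719. ALB differed between the clones, at 76 to 92 in del-4, 444 to 481 in del-56 and 122 to 168 in WT. The part of these markers in the results was not tested. In such bulk samples, fewer cells of a kind and less RNA per cell cannot be told apart.

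Cells make cholesterol and fatty acids from acetyl-CoA. The transcription factors SREBP-2 (from *SREBF2*) and SREBP-1 (from *SREBF1*) are made as precursors in the membrane of the endoplasmic reticulum, where *SCAP* escorts them to the Golgi for cleavage when sterols are low and INSIG proteins hold the complex back when sterols are high. The released fragments bind sterol regulatory elements, usually together with the factors NF-Y and SP1, and SREBP-2 acts mostly on sterol genes while the SREBP-1c form of *SREBF1* acts mostly on fatty acid genes. In the prostate, androgens raise the synthesis of both kinds of lipid, and prostate cancer cells are known for making much of their own fatty acid.

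The promoters of the 4 genes with the largest change in both deletion clones (*ELOVL6*, *FADS1*, *FADS2* and *STARD4*, by the mean of their log2 fold changes) are shown first, since these genes changed most. The promoter of *SREBF2* was added after its letters had been seen, since it held the only match to the sterol regulatory element searched. Each window, from RefSeq on GRCh38.p14, runs from 250 bases before to 50 bases after a start site, 5′ to 3′ on the strand of the gene. Capitals mark matches on either strand to CCAAT (bound by NF-Y), GGGCGG (bound by SP1) and TCACNCCAC (sterol regulatory element). *ELOVL6* lies at chr4:110198566-110198865 on the minus strand, *FADS1* at chr11:61816954-61817253 on the minus strand, *FADS2* at chr11:61816154-61816453 on the plus strand, *STARD4* at chr5:111512486-111512785 on the minus strand and *SREBF2* at chr22:41832855-41833154 on the plus strand. *FADS2* has 2 such windows in the table used, of which the one with most matches is shown.
ELOVL6: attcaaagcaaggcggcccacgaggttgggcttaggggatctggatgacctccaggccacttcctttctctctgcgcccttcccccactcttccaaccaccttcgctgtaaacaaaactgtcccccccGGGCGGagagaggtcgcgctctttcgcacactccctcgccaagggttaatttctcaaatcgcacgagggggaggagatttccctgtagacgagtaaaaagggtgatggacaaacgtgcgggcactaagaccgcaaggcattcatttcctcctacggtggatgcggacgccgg
FADS1: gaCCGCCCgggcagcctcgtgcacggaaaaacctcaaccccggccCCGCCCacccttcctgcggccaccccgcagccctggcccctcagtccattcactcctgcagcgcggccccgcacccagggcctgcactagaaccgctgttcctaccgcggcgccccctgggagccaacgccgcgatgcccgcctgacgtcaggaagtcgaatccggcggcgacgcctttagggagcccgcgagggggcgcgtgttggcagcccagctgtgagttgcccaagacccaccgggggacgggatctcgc
FADS2: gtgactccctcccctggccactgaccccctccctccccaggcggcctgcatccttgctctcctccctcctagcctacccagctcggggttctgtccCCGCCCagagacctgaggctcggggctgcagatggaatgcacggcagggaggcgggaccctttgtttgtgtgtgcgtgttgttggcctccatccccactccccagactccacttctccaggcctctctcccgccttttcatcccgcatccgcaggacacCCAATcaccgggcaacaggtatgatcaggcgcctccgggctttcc
STARD4: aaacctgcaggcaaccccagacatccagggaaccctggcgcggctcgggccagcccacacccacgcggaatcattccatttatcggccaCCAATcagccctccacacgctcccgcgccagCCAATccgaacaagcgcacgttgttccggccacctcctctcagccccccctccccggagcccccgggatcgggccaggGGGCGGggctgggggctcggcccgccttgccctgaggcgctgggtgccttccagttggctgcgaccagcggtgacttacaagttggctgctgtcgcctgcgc
SREBF2: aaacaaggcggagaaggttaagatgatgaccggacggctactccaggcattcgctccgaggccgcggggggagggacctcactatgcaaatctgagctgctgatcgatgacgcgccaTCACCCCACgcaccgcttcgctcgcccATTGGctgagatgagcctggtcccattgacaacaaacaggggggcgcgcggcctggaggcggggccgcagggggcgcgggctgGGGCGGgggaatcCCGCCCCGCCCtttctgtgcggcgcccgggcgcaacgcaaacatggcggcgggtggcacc

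*ELOVL6* held 1 match to GGGCGG and *FADS1* held 2, and neither held CCAAT. *FADS2* held 1 match to each of the 2 motifs, and *STARD4* held 2 matches to CCAAT and 1 to GGGCGG. *SREBF2* held 1 match to CCAAT, 3 to GGGCGG and 1 to TCACNCCAC. Windows were found for 29 of the 33 genes (39 windows), and none was found for *FDFT1*, *FASN*, *ACAT2* and *SQLE*. CCAAT stood in 26 of the 39 windows, against 34.6% of all 35116 windows of the same length and 34.9% of the 21584 windows of genes in the count table. In the sterol branch 13 of 15 genes had a window with CCAAT, and in the fatty acid branch 6 of 9. GGGCGG stood in 34 of the 39 windows, against 45.0% of all windows and 56.8% of those of genes in the count table, with 14 of 15 sterol genes and 8 of 9 fatty acid genes. TCACNCCAC stood in 1 of the 39 windows, against 1.13% of all windows and of those of genes in the count table. Some genes have more than 1 window, so the counts of genes cannot be set against the shares of windows. None of the motifs contains another. A match is a description of letters, and the absence of one says nothing about binding elsewhere.

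Most of the 33 genes were lower in both deletion clones than in WT. In del-4, 27 of 33 fell and 2 rose (adjusted p under 0.05, limma with Benjamini-Hochberg adjustment over all genes tested), where 20.2% of the 17401 genes tested fell and 20.5% rose. In del-56, 23 of 33 fell and 1 rose, where 20.5% of 17481 genes fell and 19.2% rose. The median log2 fold change of the 33 genes was -0.23 for del-4 and -0.17 for del-56, and that of all genes tested was -0.0028 and -0.0011. Most changes were small. With the thresholds of the study (unadjusted p under 0.05 and a change of more than 1 on the log2 scale), 3 genes were lower in del-4 (*ELOVL6*, *FADS1* and *FADS2*) and 2 in del-56 (*ELOVL6* and *FADS1*), where 3.52% and 3.25% of genes tested were lower by this rule. The 3 deletion libraries lay wholly below the 3 WT libraries for 27 genes in del-4 and for 23 in del-56, against 24.8% of genes tested for del-4 and 24.8% for del-56. The WT libraries are shared by both comparisons, so the values of the clones are set side by side and are not independent of each other.

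**Figure D1:**
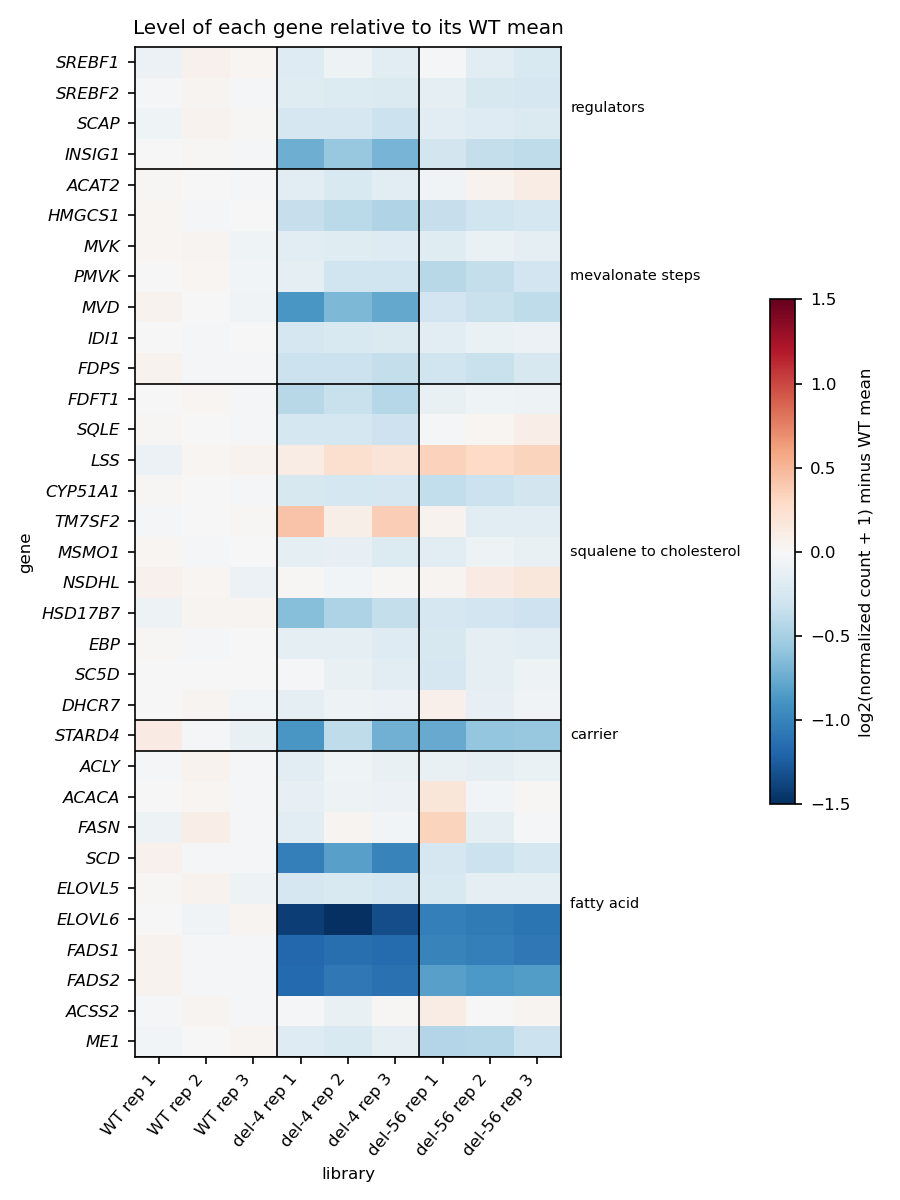
Level of each of the 33 genes (rows, by role) in the 9 libraries (columns), as log2(normalized count + 1) minus the mean of the 3 WT libraries, with blue for lower and red for higher. *ELOVL6*, *FADS1* and *FADS2* are deep blue in all 6 deletion libraries, while *LSS* is red in all 6.

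**Figure D2:**
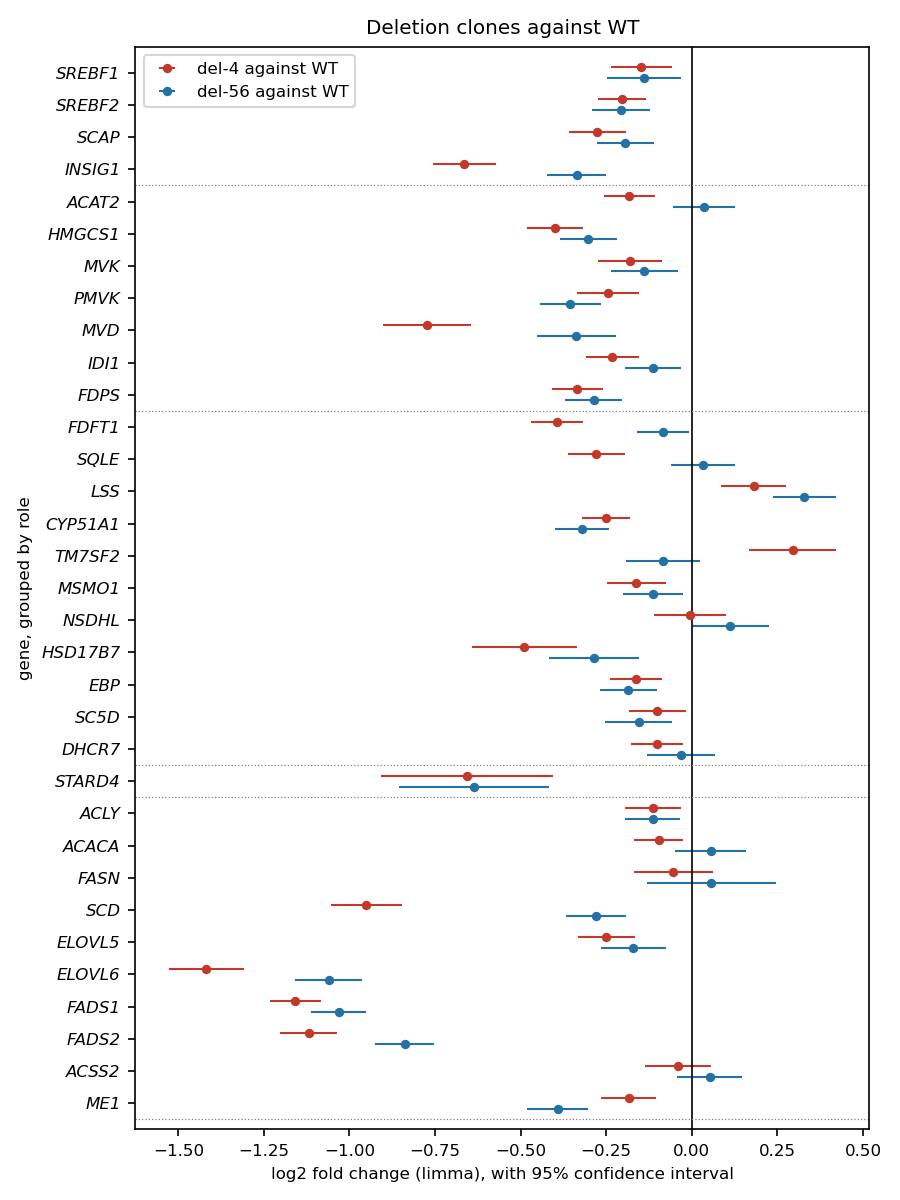
Log2 fold change of each gene in del-4 (red) and del-56 (blue) against WT, from limma, with its 95% confidence interval (bars), genes grouped by role. Most points lie between -0.50 and 0, with *ELOVL6*, *FADS1* and *FADS2* near or past -1 and *LSS* above 0 in both clones.

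All 4 regulators fell in both clones, and *INSIG1* fell most. *INSIG1* (ENSG00000186480.13, chromosome 7, 155297780 to 155310240, plus strand), which holds SREBPs in the endoplasmic reticulum and is itself a target of SREBPs, had normalized counts of 8148, 8294 and 8117 in WT, 4931, 5518 and 5053 in del-4, with 6748, 6393 and 6312 in del-56 (replicates 1, 2 and 3, in this order here and below). The del-4 libraries were the lowest, those of del-56 lay between, and the 3 groups did not overlap. Its log2 fold change was -0.67 ± 0.044 for del-4 and -0.34 ± 0.040 for del-56 (SE; limma, Benjamini-Hochberg adjusted p = 1.22e-09 and 5.78e-06). The escort *SCAP* had normalized counts of 10489, 11322 and 11035 in WT, 9161, 9215 and 8749.7 in del-4, with 9773, 9541 and 9384 in del-56. *SREBF2* had normalized counts of 21109, 21938 and 21132 in WT, 18795, 18527 and 18374 in del-4, with 19526, 18109 and 17988 in del-56. For both genes all deletion libraries lay below all WT libraries. *SCAP* changed by -0.28 ± 0.039 for del-4 and -0.19 ± 0.040 for del-56 on the log2 scale (limma, Benjamini-Hochberg adjusted p = 1.66e-05 and 9.78e-04), and *SREBF2* by -0.20 ± 0.034 for del-4 and -0.21 ± 0.040 for del-56 (limma, Benjamini-Hochberg adjusted p = 8.76e-05 and 6.06e-04).

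*SREBF1* had normalized counts of 31116, 34352 and 33569 in WT, 28743, 31347 and 29315 in del-4, with 32455, 29270.2 and 28232 in del-56. Its groups overlapped, since WT replicate 1 lay below del-4 replicate 2 and del-56 replicate 1. The log2 fold change of *SREBF1* was -0.15 ± 0.043 for del-4 and -0.14 ± 0.051 for del-56 (limma, Benjamini-Hochberg adjusted p = 0.00978 and 0.038). Its call in del-4 was lost without any 1 of del-4 replicate 1, del-4 replicate 3, WT replicate 2 or WT replicate 3 (log2 fold changes -0.14 to -0.12, limma, adjusted p = 0.0545 to 0.0741). In del-56 it was lost without any 1 of WT replicate 2, WT replicate 3, del-56 replicate 2 or del-56 replicate 3 (log2 fold changes -0.13 to -0.10, limma, adjusted p = 0.125 to 0.213). *SREBF1* shares 556 bases of exon with *RAI1* on the other strand, and the forms SREBP-1a and SREBP-1c were not separated here.

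In the mevalonate part of the sterol branch, all 7 genes fell in del-4 and 6 fell in del-56, with median log2 fold changes of -0.24 and -0.29. *MVD* (ENSG00000167508.12, chromosome 16, 88651935 to 88663161, minus strand), which decarboxylates mevalonate diphosphate, fell most of these in del-4, and *PMVK* did in del-56. *MVD* had normalized counts of 2725, 2626 and 2545 in WT, 1434, 1650.3 and 1539.8 in del-4, with 2148, 2085 and 2015 in del-56. The groups did not overlap, with del-56 between the others. *MVD* changed by -0.77 ± 0.061 for del-4 and -0.34 ± 0.054 for del-56 (limma, Benjamini-Hochberg adjusted p = 1.48e-08 and 1.21e-04). *MVD* lies on chromosome 16, where the median log2 fold change of 790 genes tested was -0.34 for del-4 and -0.31 for del-56, so its value in del-56 was close to that of its chromosome. The part of the chromosome in the change of *MVD* was not tested.

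*HMGCS1* makes HMG-CoA, the precursor of mevalonate. It had normalized counts of 8556, 8308 and 8337 in WT, 6604, 6360.4 and 6155 in del-4, with 6610.2, 6823 and 7006 in del-56. *FDPS*, which makes farnesyl diphosphate, had normalized counts of 17558, 16663 and 16500.2 in WT, 13488, 13548 and 13173 in del-4, with 13764, 13442 and 14361 in del-56. In both genes every deletion library lay below every WT library. *HMGCS1* changed by -0.40 ± 0.039 for del-4 and -0.30 ± 0.039 for del-56 (limma, Benjamini-Hochberg adjusted p = 2.01e-07 and 1.43e-05) and *FDPS* by -0.33 ± 0.036 for del-4 and -0.29 ± 0.039 for del-56 (limma, Benjamini-Hochberg adjusted p = 6.30e-07 and 2.59e-05).

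*PMVK*, the second of the mevalonate kinases, was the 1 gene of this group with a larger fall in del-56, and had normalized counts of 9769, 9898 and 9471 in WT, 8784, 7926 and 7920.0 in del-4, with 7267, 7562 and 7969 in del-56. It changed by -0.24 ± 0.043 for del-4 and -0.35 ± 0.042 for del-56 (limma, Benjamini-Hochberg adjusted p = 1.61e-04 and 5.48e-06), while the direct test of del-4 against del-56 gave 0.11 (adjusted p = 0.117, limma). *PMVK*, *FDPS* and *HSD17B7* lie on chromosome 1, whose median log2 fold change was 0.11 for del-4 and 0.12 for del-56. These 3 genes moved against that median, which is taken over the whole chromosome. No median was taken for the arm on which they lie, so a difference from their surroundings is not shown. *MVK*, the first mevalonate kinase, had normalized counts of 4605, 4632 and 4304 in WT, 4031, 3963 and 3948 in del-4, with 3987, 4201 and 4102 in del-56. *IDI1*, the isopentenyl diphosphate isomerase, had normalized counts of 7236, 7131 and 7230.1 in WT, 6062, 6121 and 6202 in del-4, with 6458, 6709.9 and 6793 in del-56. The deletion libraries of both genes lay below all WT libraries by small margins.

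*MVK* changed by -0.18 ± 0.044 for del-4 and -0.14 ± 0.046 for del-56 (limma, Benjamini-Hochberg adjusted p = 0.00284 and 0.0242), and *IDI1* by -0.23 ± 0.037 for del-4 and -0.11 ± 0.039 for del-56 (limma, Benjamini-Hochberg adjusted p = 5.46e-05 and 0.0282). The call of *MVK* in del-56 was lost without any 1 of WT replicate 1, WT replicate 2, del-56 replicate 1 or del-56 replicate 3 (log2 fold changes -0.14 to -0.12, limma, adjusted p = 0.0581 to 0.103). That of *IDI1* in del-56 was lost without any 1 of WT replicate 1, WT replicate 2, WT replicate 3, del-56 replicate 1 or del-56 replicate 2 (log2 fold changes -0.12 to -0.093, limma, adjusted p = 0.0547 to 0.0844). *ACAT2*, the cytosolic thiolase that joins acetyl-CoA units, fell in del-4 and passed no test in del-56, with log2 fold changes of -0.18 ± 0.035 for del-4 and 0.036 ± 0.042 for del-56 (limma, Benjamini-Hochberg adjusted p = 3.69e-04 and 0.543). The direct test of the clones gave -0.22 ± 0.043 for *ACAT2* (adjusted p = 0.0013, limma). *ACAT2* shares 454 bases of exon with *TCP1* on the other strand, and *MVK* shares 225 with *MMAB*.

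From squalene to cholesterol, 7 of 11 genes fell and 2 rose in del-4, and 5 fell and 1 rose in del-56. The median log2 fold change of the group was -0.16 and -0.085. *LSS*, which closes the rings of lanosterol, was the 1 member of the 33 that rose in both clones. It had normalized counts of 5502, 5962 and 6022 in WT, 6314, 6874 and 6632 in del-4, with 7398, 7173 and 7369 in del-56. All 6 deletion libraries lay above all 3 WT libraries. The log2 fold change of *LSS* was 0.18 ± 0.045 for del-4 and 0.33 ± 0.043 for del-56 (limma, Benjamini-Hochberg adjusted p = 0.00342 and 1.83e-05). Its call in del-4 was lost after rescaling of the libraries to the same total (log2 fold change 0.11, limma, adjusted p = 0.0852). It was also lost without the variance trend (limma, adjusted p = 0.0633).

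*CYP51A1*, the demethylase that acts on lanosterol, had normalized counts of 15714, 15506 and 15395 in WT, 13121, 12957 and 13075 in del-4, with 12019, 12472 and 12847 in del-56. *HSD17B7*, a ketoreductase of the removal of the C4 methyl groups, had normalized counts of 1783, 1938 and 1944 in WT, 1210.1, 1364 and 1468 in del-4, with 1580.0, 1544 and 1521 in del-56. Neither gene's deletion libraries overlapped with WT. *CYP51A1* changed by -0.25 ± 0.033 for del-4 and -0.32 ± 0.037 for del-56 (limma, Benjamini-Hochberg adjusted p = 7.29e-06 and 4.49e-06) and *HSD17B7* by -0.49 ± 0.073 for del-4 and -0.29 ± 0.061 for del-56 (limma, Benjamini-Hochberg adjusted p = 2.88e-05 and 0.00151). *HSD17B7* and *FDPS* have pseudogenes of near-identical sequence, with which the counting could have split reads. The annotation holds a readthrough gene that shares 2844 of the 4171 exon bases of *CYP51A1*, so reads of the pair may be counted for both. The span of *CYP51A1* also overlaps with that of *AKAP9*, on the other strand, by 25687 bases, of which 108 are exonic in both.

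*EBP*, the sterol isomerase, had normalized counts of 9989, 9744 and 9846 in WT, 8937, 8876 and 8602 in del-4, with 8329, 8873 and 8825 in del-56. *MSMO1*, the sterol methyl oxidase, had normalized counts of 5789, 5542 and 5620.1 in WT, 5086, 5171 and 4894 in del-4, with 5082, 5359 and 5229.9 in del-56. Both genes were lower in every deletion library than in every WT library. *EBP* changed by -0.16 ± 0.035 for del-4 and -0.19 ± 0.039 for del-56 (limma, Benjamini-Hochberg adjusted p = 0.00116 and 0.0012) and *MSMO1* by -0.16 ± 0.041 for del-4 and -0.11 ± 0.042 for del-56 (limma, Benjamini-Hochberg adjusted p = 0.00363 and 0.0403). The call of *MSMO1* in del-56 was lost without any 1 of WT replicate 1, WT replicate 2, WT replicate 3, del-56 replicate 1 or del-56 replicate 3 (log2 fold changes -0.13 to -0.094, limma, adjusted p = 0.0598 to 0.113). *EBP* shares 644 of its 1768 exon bases with an overlapping gene on the same strand. The spans of the pair overlap by 6911 bases, so reads may be counted for both.

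The other 6 genes of this group were called in 1 clone or in neither. *FDFT1* (squalene synthase) fell in del-4, with values of -0.39 ± 0.036 for del-4 and -0.084 ± 0.036 for del-56 (limma, Benjamini-Hochberg adjusted p = 1.10e-07 and 0.0749), and so did *SQLE* (squalene epoxidase, a rate-limiting step), with -0.28 ± 0.040 for del-4 and 0.033 ± 0.044 for del-56 (limma, Benjamini-Hochberg adjusted p = 1.83e-05 and 0.601). *TM7SF2*, a sterol C14 reductase, had values of 0.29 ± 0.060 for del-4 and -0.085 ± 0.051 for del-56 (limma, Benjamini-Hochberg adjusted p = 6.72e-04 and 0.206) and so rose in del-4. Its normalized counts were 10820.5, 11055 and 11103 in WT, 14769.6, 11695 and 14187 in del-4, with 11448, 9847 and 9874 in del-56, with replicates 1 and 3 of del-4 well above the rest and replicate 2 closer to WT. In del-56, without its replicate 1, the log2 fold change of *TM7SF2* was -0.16 (limma, adjusted p = 0.00259), which is a call that the full set did not give.

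*SC5D* (sterol C5 desaturase) had values of -0.10 ± 0.040 for del-4 and -0.15 ± 0.046 for del-56 (limma, Benjamini-Hochberg adjusted p = 0.0528 and 0.0137), which is a fall in del-56. Without del-4 replicate 1 its log2 fold change in del-4 was -0.13 (limma, adjusted p = 0.0203), and its call in del-56 was lost without WT replicate 2 (log2 fold change -0.15, limma, adjusted p = 0.0513). *DHCR7*, which carries out the last reduction of one route to cholesterol, had values of -0.10 ± 0.036 for del-4 and -0.032 ± 0.047 for del-56 (limma, Benjamini-Hochberg adjusted p = 0.0306 and 0.631). Its call in del-4 was lost without any 1 of del-4 replicate 1, del-4 replicate 3, WT replicate 1 or WT replicate 2 (log2 fold changes -0.11 to -0.081, limma, adjusted p = 0.0515 to 0.144). *NSDHL*, a dehydrogenase of C4 demethylation, passed no test (-0.0045 ± 0.050 for del-4 and 0.11 ± 0.053 for del-56, limma, Benjamini-Hochberg adjusted p = 0.958 and 0.109). Without del-56 replicate 1 *NSDHL* was called higher in del-56, at 0.15 (limma, adjusted p = 0.0385).

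*STARD4* (ENSG00000164211.13, chromosome 5, 111496030 to 111512590, minus strand), a carrier that moves cholesterol between membranes, was the lowest expressed of the 33 genes, at 133 normalized counts per kb of exon in WT, against 15152 for *ELOVL5*, the highest. Its normalized counts were 825, 747 and 703 in WT, 413, 579.7 and 460.0 in del-4, with 447, 506 and 509 in del-56. All deletion libraries lay below WT, and those of del-4 were the more spread. *STARD4* changed by -0.66 ± 0.12 for del-4 and -0.64 ± 0.10 for del-56 (limma, Benjamini-Hochberg adjusted p = 2.26e-04 and 1.30e-04), while del-4 against del-56 gave -0.021 with a 95% interval of -0.29 to 0.25.

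In the fatty acid branch, 8 of 10 genes fell in del-4 and 7 in del-56, and none rose (limma). At an unadjusted p under 0.05, 0 in del-4 and 0 in del-56 rose, and edgeR and DESeq2 called 0 higher in each clone. The changes fell into parts of unlike size. The elongases and desaturases (*SCD*, *ELOVL5*, *ELOVL6*, *FADS1* and *FADS2*) all fell in both clones, with median log2 fold changes of -1.12 for del-4 and -0.84 for del-56. The enzymes of carbon supply and the synthase (*ACLY*, *ACACA*, *FASN*, *ACSS2* and *ME1*) had medians of -0.10 and 0.052, with 3 and 2 of 5 lower. This split of the branch was made after the values had been seen and was not tested.

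*ELOVL6*, which extends palmitate to stearate, fell most of the 33 genes (ENSG00000170522.10, chromosome 4, 110045850 to 110199200, minus strand, GRCh38). Its normalized counts were 5800.2, 5552 and 5931 in WT, 2163, 2012 and 2294 in del-4, with 2832, 2751 and 2697 in del-56. The groups did not overlap, and the mean of del-4 was 37.4% and that of del-56 47.9% of WT. *ELOVL6* changed by -1.42 ± 0.052 for del-4 and -1.06 ± 0.046 for del-56 (limma, Benjamini-Hochberg adjusted p = 5.40e-13 and 4.81e-11). Its promoter is the 1st of those printed above, with 1 match to GGGCGG.

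*FADS1* and *FADS2* are the delta-5 and delta-6 desaturases, which work in turn on polyunsaturated fatty acids, and lie on opposite strands of the same stretch of chromosome 11. *FADS1* (ENSG00000149485.19, chromosome 11, 61799627 to 61829318, minus strand) had normalized counts of 27175, 26070.4 and 25670.3 in WT, 11588, 11959.8 and 11805 in del-4, with 13178, 12876 and 12539 in del-56. *FADS2* (ENSG00000134824.14, chromosome 11, 61792980 to 61867354, plus strand) had normalized counts of 108257, 103540.2 and 102617 in WT, 46757, 49947 and 48066 in del-4, with 59513, 57736 and 58465 in del-56. All deletion libraries of both genes lay below all WT libraries, with mean levels relative to WT of 44.8% for del-4 and 48.9% for del-56 in *FADS1*, and of 46.0% and 55.9% in *FADS2*. *FADS1* changed by -1.16 ± 0.035 for del-4 and -1.03 ± 0.037 for del-56 (limma, Benjamini-Hochberg adjusted p = 3.12e-14 and 7.71e-12) and *FADS2* by -1.12 ± 0.039 for del-4 and -0.84 ± 0.040 for del-56 (limma, Benjamini-Hochberg adjusted p = 3.24e-13 and 1.82e-10).

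The annotated spans of *FADS1* and *FADS2* overlap by 29692 bases, of which 490 are exonic in both. That of *FADS2* overlaps with *FEN1*, a nuclease of DNA replication, by 4259 bases, of which 49 are exonic in both. Whether reads were counted by strand is not given in the sources used here, so reads of the overlapping genes may be shared. Chosen after the values had been seen, the count of *FADS2* minus those of *FADS1* and *FEN1* was 64411, 60928 and 60259 in WT, 21475, 24625 and 22444 in del-4, and 32928, 31088 and 32129 for del-56. This remainder was 36.9% of WT for del-4 and 51.8% for del-56. It is a level of *FADS2* only if all reads of *FADS1* and *FEN1* were also counted for *FADS2*, which is not known. The span of *FADS1* lies wholly within that of *FADS2*. The reverse, reads of *FADS2* counted for *FADS1*, was not tested, so a fall of *FADS1* apart from that of *FADS2* is not shown. *FEN1* itself fell by less, at -0.29 for del-4 and -0.28 for del-56 (limma, adjusted p = 1.69e-06 and 7.68e-06).

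*SCD* (ENSG00000099194.6, chromosome 10, 100347230 to 100364830, plus strand), which puts the double bond into stearate and palmitate, showed the widest gap between the deletion clones. Its normalized counts were 64528, 60133 and 60136 in WT, 30128, 34871 and 30770.1 in del-4, with 51555, 49386 and 51259 in del-56. The 3 groups did not overlap, with del-4 at 51.8% and del-56 at 82.4% of the WT mean. *SCD* changed by -0.95 ± 0.049 for del-4 and -0.28 ± 0.041 for del-56 (limma, Benjamini-Hochberg adjusted p = 4.34e-11 and 5.21e-05). *ELOVL5*, which extends polyunsaturated fatty acids, had normalized counts of 58597, 60089.9 and 54631 in WT, 48292, 49228 and 48103 in del-4, with 49079.5, 52178 and 52611 in del-56, lower in every deletion library than in WT. It changed by -0.25 ± 0.040 for del-4 and -0.17 ± 0.044 for del-56 (limma, Benjamini-Hochberg adjusted p = 5.61e-05 and 0.00585).

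**Figure D3:**
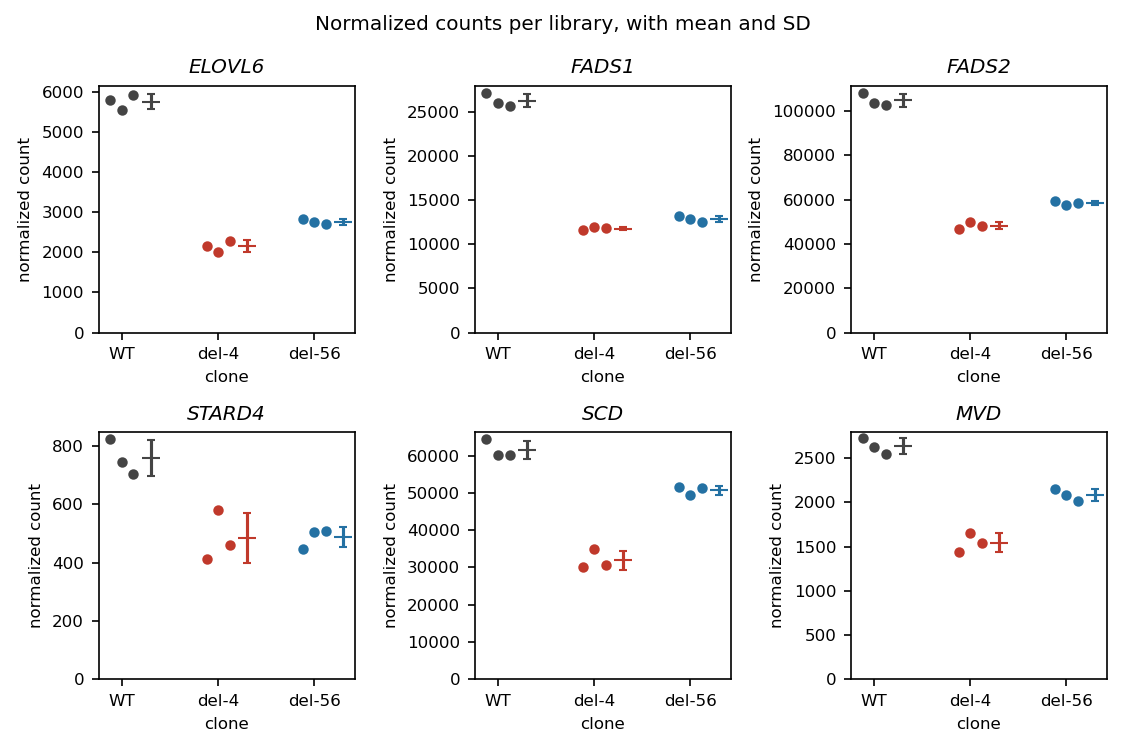
Normalized counts (vertical axes, from 0) of the 6 genes with the largest mean fall in both clones, in the 3 libraries of WT, del-4 and del-56 (points), with the mean and SD beside them (bars). In each panel the WT libraries are the highest, and del-56 lies between WT and del-4 in all panels but that of *STARD4*.

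Among the enzymes of carbon supply, *ME1*, the malic enzyme that yields NADPH, had normalized counts of 10261, 10664 and 10868 in WT, 9260.0, 9071 and 9655 in del-4, with 7836, 7898 and 8500.3 in del-56. It fell in both clones and was lowest in del-56, with changes of -0.18 ± 0.038 for del-4 and -0.39 ± 0.042 for del-56 (limma, Benjamini-Hochberg adjusted p = 7.45e-04 and 2.06e-06). *ACLY*, which makes cytosolic acetyl-CoA from citrate, had normalized counts of 46179, 48341 and 45649 in WT, 41413, 44726 and 43357 in del-4, with 43402, 42435 and 43577 in del-56. The deletion libraries lay below WT, and *ACLY* changed by -0.11 ± 0.039 for del-4 and -0.11 ± 0.038 for del-56 (limma, Benjamini-Hochberg adjusted p = 0.0245 and 0.0238). The call of *ACLY* in del-4 was lost without any 1 of del-4 replicate 1, del-4 replicate 3 or WT replicate 2 (log2 fold changes -0.12 to -0.085, limma, adjusted p = 0.0759 to 0.137). In del-56 it was lost without any 1 of WT replicate 2, del-56 replicate 2 or del-56 replicate 3 (log2 fold changes -0.12 to -0.090, limma, adjusted p = 0.0621 to 0.133).

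*ACACA*, the acetyl-CoA carboxylase that commits carbon to fatty acids, had values of -0.10 ± 0.034 for del-4 and 0.056 ± 0.049 for del-56 (limma, Benjamini-Hochberg adjusted p = 0.0313 and 0.404). The call of *ACACA* in del-4 was lost without any 1 of del-4 replicate 1, del-4 replicate 3 or WT replicate 2 (log2 fold changes -0.10 to -0.081, limma, adjusted p = 0.0821 to 0.134). *FASN*, the synthase itself, passed no test (-0.054 ± 0.055 for del-4 and 0.057 ± 0.088 for del-56, limma, Benjamini-Hochberg adjusted p = 0.473 and 0.651). Its 95% intervals were -0.17 to 0.061 for del-4 and -0.13 to 0.24 for del-56, so a fall of the size of that of *ELOVL6* lay outside them. *FASN* had normalized counts of 120125, 135640.0 and 123378 in WT, 112584, 129913 and 122871 in del-4, with 159285, 114241 and 124438 in del-56, with replicate 1 of del-56 the highest of all 9 libraries. *ACSS2*, which makes acetyl-CoA from acetate, passed no test either (-0.040 ± 0.046 for del-4 and 0.052 ± 0.045 for del-56, limma, Benjamini-Hochberg adjusted p = 0.53 and 0.399).

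Set side by side, the medians of the branches were close in del-4, the fatty acid median was the lower in del-56, and the fatty acid genes were the more spread in both. The median log2 fold change of the 18 sterol genes was -0.21 for del-4 and -0.13 for del-56, and that of the 10 fatty acid genes was -0.22 and -0.23. In del-4, 14 sterol genes fell and 2 rose, and 8 fatty acid genes fell and none rose. In del-56, 11 sterol genes fell and 1 rose, and 7 fatty acid genes fell and none rose. Sterol genes ran from -0.77 to 0.29 in del-4 and from -0.35 to 0.33 in del-56. Fatty acid genes ran from -1.42 to -0.040 and from -1.06 to 0.057. No gene of the sterol branch was lower by more than 1 on the log2 scale, while the fatty acid branch had 3 such genes in del-4 (*ELOVL6*, *FADS1* and *FADS2*) and 2 such genes (*ELOVL6* and *FADS1*) in del-56.

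The medians were also taken library by library, with each gene relative to its WT mean. The median of the sterol genes was -0.014 to 0.017 in the WT libraries, -0.23 to -0.16 for del-4 and -0.17 to -0.12 for del-56. That of the fatty acid genes was -0.032 to 0.020 in WT, -0.23 to -0.20 for del-4 and -0.25 to -0.20 for del-56. The ranges of the branches overlapped in del-4, while in del-56 all 3 fatty acid medians lay below all 3 sterol medians. No test was made of the difference between branches, since genes of a pathway are not replicates. Elongases and desaturases had medians of -1.16 to -1.07 in the del-4 libraries and -0.86 to -0.82 in those of del-56, where carbon supply and synthase genes had -0.16 to -0.082 and -0.14 to 0.11.

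**Figure D4:**
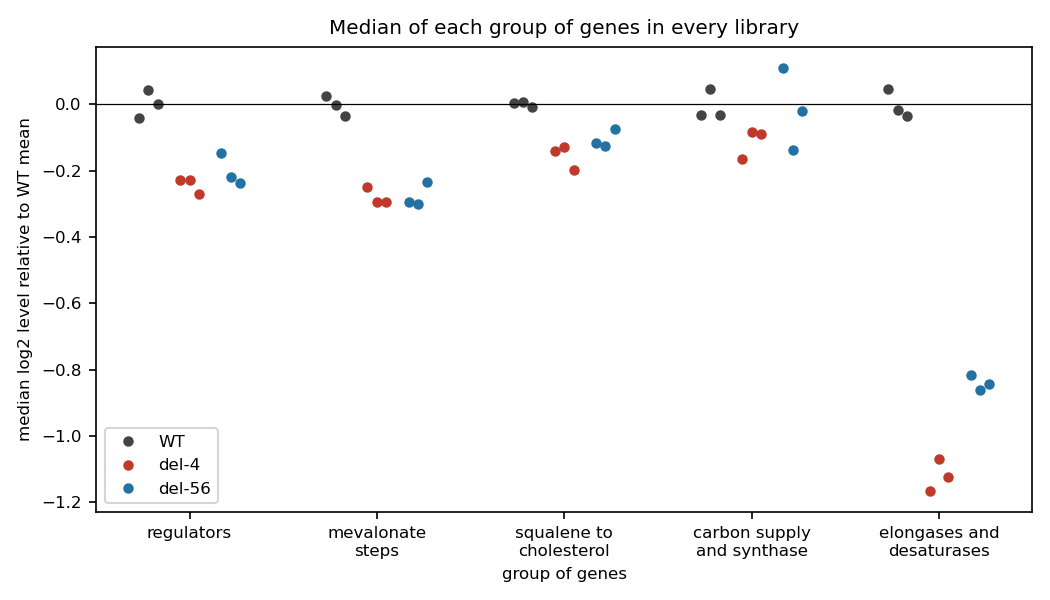
Median over the genes of each group (horizontal axis) of the log2 level relative to the WT mean (vertical axis), 1 point per library, for WT (grey), del-4 (red) and del-56 (blue). The elongases and desaturases lie near -1.12 in del-4 and -0.84 in del-56, and the other groups lie between -0.30 and 0.11.

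Compared directly, 12 of the 33 genes had lower and 2 had higher levels in del-4 than in del-56, where 9.0% of the 17447 genes tested were lower and 10.9% higher. Without del-4 replicate 1, 8 genes were lower. *SCD* differed most, at -0.67 ± 0.047 (limma, Benjamini-Hochberg adjusted p = 9.28e-09), and was the 1 gene past 0.5 on the log2 scale. *INSIG1* differed by -0.33 ± 0.048 (adjusted p = 7.32e-05), *MVD* by -0.44 ± 0.065 (adjusted p = 9.85e-05) and *ELOVL6* by -0.36 ± 0.058 (adjusted p = 2.29e-04). *FDFT1* and *SQLE*, the pair of enzymes that makes and oxidizes squalene, differed by -0.31 and -0.31 (adjusted p = 8.78e-06 and 6.41e-05). The 2 genes higher in del-4 were *TM7SF2*, at 0.38, and *ME1*, at 0.21 (adjusted p = 7.56e-04 and 0.00175). The sterol branch had 6 genes lower and 1 higher in del-4, and the fatty acid branch 5 lower and 1 higher.

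Of these 14 differences between the clones, 4 were lost when 1 library was left out. *IDI1* (-0.12) lost its call without any 1 of del-4 replicate 1, del-4 replicate 2, del-4 replicate 3, del-56 replicate 2 or del-56 replicate 3 (log2 fold changes -0.13 to -0.10, limma, adjusted p = 0.0848 to 0.164). *LSS* (-0.15) lost it without any 1 of del-4 replicate 1, del-4 replicate 3 or del-56 replicate 3 (log2 fold changes -0.15 to -0.12, limma, adjusted p = 0.0654 to 0.11). *ACACA* (-0.15) lost it without any 1 of del-4 replicate 1, del-4 replicate 2, del-4 replicate 3, del-56 replicate 1 or del-56 replicate 3 (log2 fold changes -0.17 to -0.089, limma, adjusted p = 0.0518 to 0.115). *FADS1* (-0.13) lost it without any 1 of del-4 replicate 1, del-4 replicate 3 or del-56 replicate 2 (log2 fold changes -0.13 to -0.11, limma, adjusted p = 0.0628 to 0.0879). *SREBF1*, *SREBF2* and *STARD4* were close to 0 in the same comparison, with 95% intervals of -0.11 to 0.094, -0.078 to 0.084 and -0.29 to 0.25.

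Other genes of lipid metabolism were taken from lists by function. Of 4 other genes of SREBP processing, *MBTPS1*, *MBTPS2* and *INSIG2* fell in del-4, *MBTPS1* and *INSIG2* fell in del-56, and *RNF139* passed no test in either clone. None of the 4 rose by limma, edgeR or DESeq2, with 0 in del-4 and 0 in del-56 higher at an unadjusted p under 0.05. *MBTPS1*, a protease that cleaves SREBPs, had log2 fold changes of -0.31 ± 0.041 for del-4 and -0.13 ± 0.039 for del-56 (limma, Benjamini-Hochberg adjusted p = 6.97e-06 and 0.0162), and lies on chromosome 16, whose medians are given above for *MVD*. Among 5 other genes of sterol synthesis none fell in either clone by limma, edgeR or DESeq2, with 0 in del-4 and 0 in del-56 lower at an unadjusted p under 0.05. In del-4 none rose by limma (0 at an unadjusted p under 0.05, 0 by edgeR and 0 by DESeq2), and 2 rose in del-56. Of 14 genes of sterol uptake, transport, storage and export, 6 fell and 2 rose in del-4 and 4 fell and 4 rose in del-56. Of 18 other genes of fatty acid synthesis and elongation, 5 fell and 8 rose in del-4 and 5 fell and 7 rose in del-56. Of 12 genes of acyl-CoA and triglyceride synthesis, 2 fell and 2 rose, and 4 fell and 1 rose. Of 15 genes of fatty acid oxidation, 5 fell and 6 rose, and 6 fell and 3 rose. Over all genes tested, 20.2% fell and 20.5% rose in del-4, and 20.5% fell and 19.2% rose in del-56. Counts near these shares are no result about a list, and no list was tested as a whole. Relatives of the members were among the genes of these lists. *ELOVL4*, the elongase of very long chains, had normalized counts of 52.2, 38.6 and 113 in WT, 438, 349 and 398 in del-4, with 164, 145 and 121 in del-56, and rose by 2.66 for del-4 and 1.20 for del-56 (limma, Benjamini-Hochberg adjusted p = 5.80e-07 and 0.00717). *ELOVL2*, an elongase of polyunsaturated fatty acids, had normalized counts of 209, 291 and 267 in WT, 67.2, 80.7 and 91.4 in del-4, with 106, 98.4 and 92.2 in del-56, and changed by -1.67 and -1.35 (limma, Benjamini-Hochberg adjusted p = 3.04e-06 and 3.18e-05). These are low counts beside the members, and the del-4 libraries of *ELOVL4* lay above all others.

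*SCD5*, the second stearoyl-CoA desaturase, rose where *SCD* fell, with values of 0.73 ± 0.075 for del-4 and 0.75 ± 0.081 for del-56 (limma, Benjamini-Hochberg adjusted p = 3.63e-07 and 2.15e-06). *SCD5* had normalized counts of 781, 756 and 756 in WT, 1209, 1309 and 1299.8 in del-4, with 1379.7, 1299 and 1181 in del-56. *SOAT1*, which esterifies cholesterol for storage, rose with values of 0.79 ± 0.041 for del-4 and 0.81 ± 0.045 for del-56 (limma, Benjamini-Hochberg adjusted p = 4.71e-11 and 1.23e-09). *DECR1*, a reductase for the oxidation of polyunsaturated fatty acids, fell with values of -0.73 ± 0.059 for del-4 and -0.53 ± 0.065 for del-56 (limma, Benjamini-Hochberg adjusted p = 1.92e-08 and 8.44e-06), and *LPIN1*, a phosphatidate phosphatase, with values of -0.55 ± 0.060 for del-4 and -0.62 ± 0.058 for del-56 (limma, Benjamini-Hochberg adjusted p = 9.03e-07 and 4.58e-07). *LPIN1* lies on chromosome 2, as does *INSIG2*. The median log2 fold change of genes tested on that chromosome was -0.15 for del-4 and -0.16 for del-56, and its part was not tested. Relatives of the desaturases, elongases and *INSIG1* were added to the plot of family members after their values had been seen. Of these, *FADS3*, next to *FADS2*, had 0.66 ± 0.066 for del-4 and 0.24 ± 0.072 for del-56 (limma, Benjamini-Hochberg adjusted p = 3.27e-07 and 0.0159), *ELOVL7* had 0.51 ± 0.048 for del-4 and 0.60 ± 0.051 for del-56 (limma, Benjamini-Hochberg adjusted p = 1.43e-07 and 1.67e-07), *ELOVL1* had 0.27 ± 0.035 for del-4 and 0.18 ± 0.036 for del-56 (limma, Benjamini-Hochberg adjusted p = 6.72e-06 and 7.71e-04), and *INSIG2* had -0.53 ± 0.069 for del-4 and -0.55 ± 0.083 for del-56 (limma, Benjamini-Hochberg adjusted p = 5.91e-06 and 6.34e-05).

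**Figure D5:**
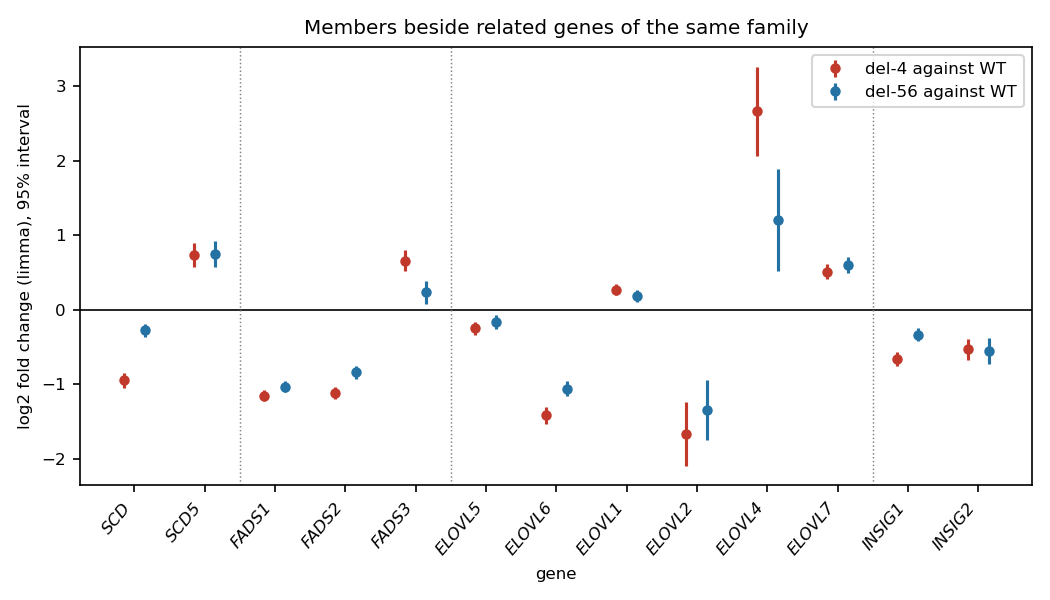
Log2 fold change against WT (vertical axis, limma, with 95% confidence intervals) of *SCD*, *FADS1*, *FADS2*, *ELOVL5*, *ELOVL6* and *INSIG1* beside other genes of their families, in del-4 (red) and del-56 (blue). *SCD5*, *FADS3*, *ELOVL1*, *ELOVL4* and *ELOVL7* lie above 0 in both clones, and the rest lie below 0.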

How the data were processed

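PolyA RNA of 3 cultures each of del-4, del-56 and WT was sequenced with strand-specific libraries. The authors checked reads with FastQC 0.11.8, trimmed them with Trim Galore 0.6.5, aligned them to GRCh38 with STAR 2.71a (SAMtools 1.8 for indexing), and counted them on protein-coding genes of GENCODE with bedtools 2.27.1 multicov. The deposited values are a signal, counts divided by 1 DESeq2 size factor per library. Whole reads were recovered for 100% of values (tolerance 0.001), and the size factors were reproduced from them. Of values of 1 to 20 reads, 83.8% were even, as where both mates of a pair are counted.

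The main test was limma 3.58.1 (R 4.3.3) with a variance trend on log2(normalized count + 1), which understates changes of low genes, fitted to genes whose mean was 1 or more in the 6 libraries compared. A gene was called at a Benjamini-Hochberg adjusted p under 0.05. Changes are given with SE. Alternatives were edgeR 4.0.16 and DESeq2 1.42.0 on recovered reads, the study's rule, and others given in the closing section. Symbols and positions are from GENCODE version 44 (19923 of 19984 identifiers matched). The gene positions given for *INSIG1*, *STARD4*, *ELOVL6* and *SCD* are rounded in their last digit. The members and lists were chosen with earlier results of these data known. Values in every library are given for the 4 regulators and for genes called in both clones, or different between them by over 0.5 on the log2 scale, with *FASN* and *TM7SF2* added after their values were seen. Of other pathway genes, the 6 called in both clones with the largest mean change were named by rule, and genes of SREBP processing and family members were added after their values were seen. Of the lists of pathway genes, 1 entry is not reported here.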

Additional observations from a re-analysis of the deposited data

Results flagged for a closer look

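For 14 of the 33 genes the change against WT differed between the deletion clones, as tested by the limma fit of del-4 against del-56. The log2 differences of del-4 from del-56 were -0.33 for *INSIG1*, -0.22 for *ACAT2*, -0.44 for *MVD*, -0.12 for *IDI1*, -0.31 for *FDFT1*, -0.31 for *SQLE* and -0.15 for *LSS*. They were 0.38 for *TM7SF2*, -0.15 for *ACACA*, -0.67 for *SCD*, -0.36 for *ELOVL6*, -0.13 for *FADS1*, -0.28 for *FADS2* and 0.21 for *ME1*. Every group has 3 libraries, so no library was tested for standing apart within its group.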

How the results depend on the processing

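With the study's rule set apart, the calls of members kept their direction under the 17 other settings of each comparison: 470 of 493 values of called genes in del-4, 371 of 408 in del-56 and 215 of 238 in the comparison of the clones also kept their side of the threshold, and the rest lost it. Counts of lower members under edgeR and DESeq2 on recovered reads were 27, 23 and 12, as by limma. Over all genes, these tools called 7049, 6943 and 3492 (edgeR), 7019, 6877 and 3629 (DESeq2) and 7082, 6938 and 3469 genes (limma) in del-4, del-56 and between the clones. With the study's rule, 3 were lower in del-4 and 0 higher, 2 and 0 in del-56, and 0 and 0 between the clones. Without the variance trend, 23 were lower and 0 higher in del-4, 16 were lower in del-56, and between the clones 7 were lower, 0 higher. Among the calls lost were that of *ELOVL5* in del-56 (limma, adjusted p = 0.0698) and those of *TM7SF2* and *ME1* between the clones (limma, adjusted p = 0.121 and 0.0675). Rescaling to the same total left 1 higher in del-4, with the call of *LSS* lost. It gave sterol medians of -0.28, -0.16 and -0.12 (del-4, del-56 and del-4 against del-56), and fatty acid medians of -0.29, -0.25 and -0.16. Quantile normalization gave fatty acid medians of -0.30, -0.27 and -0.18. The cause of these shifts was not tested.

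Leaving out each library in turn gave 23 to 27 members lower in del-4, 17 to 21 in del-56 and 8 to 13 between the clones. It also gave 1 to 2 members higher in del-56, and fatty acid medians of -0.25 to -0.20 in del-56 and -0.16 to -0.10 between the clones. Genes that passed no test changed sign: *NSDHL* in del-4 (-0.048 to 0.027), *FASN* in del-4 (-0.10 to 0.0015) and in del-56 (-0.082 to 0.16), and in del-56 *ACAT2* (-0.00094 to 0.083), *SQLE* (-0.0027 to 0.064), *DHCR7* (-0.087 to 0.015) and *ACACA* (-0.0081 to 0.10). Quantile normalization also turned *NSDHL* in del-4 (0.0035) and *FASN* in del-56 (-0.062).

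Deviations of libraries with the same replicate number correlated at -0.0889 to 0.121 and others at -0.149 to 0.0764. These ranges overlap, so replicate numbers were not shown to pair the libraries. With 3 libraries per group, this check cannot exclude pairing. With the number as a replicate block, 27 members were lower in del-4, 18 in del-56 and 12 between the clones. In del-56 it ended the calls of *SREBF1*, *MVK*, *IDI1*, *MSMO1* and *ACLY* (limma, adjusted p = 0.1, 0.0517, 0.0702, 0.0927 and 0.0893). Depth did not limit the members, whose lowest mean count was 484, that of *STARD4* in del-4.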

Other observations

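Besides *FADS1* and *FADS2*, 8 other genes of the table lie within 100000 bases of the pair on chromosome 11, and they did not move as one block. *FADS3* rose in both clones and *FEN1* fell in both, as given above. The membrane protein gene *TMEM258* had log2 fold changes of 0.21 ± 0.064 for del-4 and 0.17 ± 0.064 for del-56 (limma, Benjamini-Hochberg adjusted p = 0.0133 and 0.0513). *FTH1*, the heavy chain of ferritin, whose many pseudogenes make its counts uncertain, rose in del-4 and fell in del-56, with 0.40 ± 0.054 for del-4 and -0.18 ± 0.048 for del-56 (limma, Benjamini-Hochberg adjusted p = 8.53e-06 and 0.00626). Its normalized counts were 206639, 208617 and 199451 in WT, 288867, 250940.2 and 275348 in del-4, with 184616, 176566 and 180928 in del-56. *BEST1*, which overlaps with *FTH1* in the annotation, so that their reads may be shared, had 0.45 ± 0.048 for del-4 and -0.13 ± 0.043 for del-56 (limma, Benjamini-Hochberg adjusted p = 6.31e-07 and 0.0268). *DAGLA*, *MYRF* and *RAB3IL1* passed no test in either clone, with log2 fold changes between -0.10 and 0.12. These neighbours were chosen by position after the values of *FADS1* and *FADS2* had been seen.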
